A study of Mus musculus with 15 samples.

Results

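The genes described here encode the proteins of the cytosolic ribosome, followed through injury in kidney cells sorted and labelled as PDGFRa-positive fibroblasts. Tubule and macrophage markers were also measured in these samples, at levels that differed between groups and are given below. They are every gene whose mouse symbol has the form Rpl or Rps with a number, together with Rplp0, Rplp1, Rplp2 and Rpsa, and whose array probe set names no other gene. This rule found 67 genes among the 17097 genes with a probe set of their own. They divide into 40 genes of the large subunit, 24 of the small subunit and 3 of the stalk. They carried 128 of the 45141 probe sets. The family was taken up because many of its genes were higher in each injury group than in uninjured kidneys, so the differences from uninjured kidneys are given below as a description and carry no test. The comparisons between injury groups did not enter that choice and were tested.

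The cells came from kidneys of adult C57BL/6 mice and were sorted by flow cytometry, and their RNA was amplified before it was hybridised. There were 5 groups of 3 arrays. Kidneys with acute injury induced by folic acid (FA) were sampled at day 3, day 7 and day 14, kidneys with unilateral ureteral obstruction (UUO) were sampled at day 14, and uninjured kidneys had no injury and no time label. The labels leave unstated if each array stands for its own mouse, if mice were pooled and if the sort used an antibody or a reporter, so p-values measure only the spread between these arrays.

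The ribosome joins amino acids into protein in the order that a messenger RNA gives. Its small subunit reads the messenger RNA, its large subunit forms the peptide bond, and the stalk, a flexible arm of the large subunit built on Rplp0 and carrying Rplp1 and Rplp2, recruits the elongation factors. In mammals most ribosomal protein messenger RNAs begin with a C followed by an unbroken run of C and T, the terminal oligopyrimidine tract, through which mTOR signalling sets how well they are translated, and the S6 kinases of the same pathway phosphorylate Rps6.

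The letters around the start are shown here for a set of members, since that tract is the sequence feature this family is best known for. The capitals below can begin before the start of transcription, so part of a marked run can lie outside the messenger RNA. Each stretch below covers 60 bases before the start of transcription and 20 from the start on, 5′ to 3′, from the RefSeq promoters of mouse build GRCm38.p6, and capitals mark the unbroken run of at least 5 C or T letters that covers the start.
Rpl35, a large subunit gene at chr2:39005112-39005191 on the minus strand: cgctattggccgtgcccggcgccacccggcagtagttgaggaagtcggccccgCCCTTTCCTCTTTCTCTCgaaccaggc
Rpl28, a large subunit gene at chr7:4792905-4792984 on the plus strand: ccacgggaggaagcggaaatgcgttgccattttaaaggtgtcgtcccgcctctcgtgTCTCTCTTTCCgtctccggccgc
Rps6, the S6 kinase substrate, at chr4:86857348-86857427 on the minus strand: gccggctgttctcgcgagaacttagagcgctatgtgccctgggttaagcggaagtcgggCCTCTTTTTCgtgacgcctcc
Rplp2, a stalk gene at chr7:141447591-141447670 on the plus strand: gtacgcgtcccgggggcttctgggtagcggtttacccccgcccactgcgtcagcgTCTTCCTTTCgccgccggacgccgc
Rps9, a small subunit gene at chr7:3703981-3704060 on the plus strand: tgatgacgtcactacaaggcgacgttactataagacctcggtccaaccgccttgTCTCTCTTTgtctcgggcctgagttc
Rps26, a small subunit gene at chr10:128626487-128626566 on the minus strand: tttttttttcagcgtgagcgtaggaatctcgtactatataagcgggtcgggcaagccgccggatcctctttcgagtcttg
Rpl39l, the paralog of Rpl39, at chr16:10170168-10170247 on the plus strand: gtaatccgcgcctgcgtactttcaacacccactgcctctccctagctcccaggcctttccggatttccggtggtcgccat
Rpl3l, the paralog of Rpl3, at 1 of its 2 listed starts, chr17:24727766-24727845 on the plus strand: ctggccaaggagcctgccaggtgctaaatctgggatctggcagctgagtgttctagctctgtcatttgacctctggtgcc
The run covering the start, counted on both sides of it, was 18 letters long in Rpl35, 11 in Rpl28, 10 in Rps6 and Rplp2 and 9 in Rps9. Rps26, Rpl39l and Rpl3l had none at the annotated start. Rps9 did not start on C, so its marked run is not the tract as defined above. Rps26 held a run of 9 letters within 20 bases of that start, so whether a promoter shows the run depends on the exact start in the table.

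The promoter table covered 53 of the 67 genes, with 64 starts, and the share of all 32851 starts in the table is given beside each share for these genes. It did not hold Rpl17, Rpl21, Rpl23a, Rpl29, Rpl3, Rpl30, Rpl32, Rpl36, Rpl7, Rpl8, Rplp1, Rps14, Rps20 or Rps29. A run of at least 5 C or T letters covered 28.1% of the ribosomal protein starts and 10.1% of all starts, and a start on C followed by at least 4 further C or T letters was found at 17.2% and 2.51%. A run of at least 8 lay within 20 bases of 40.6% of the ribosomal protein starts and 16.0% of all starts. In the window of 250 bases before to 50 after the start, both strands, the letters CCGGAAG, the core bound by ETS factors, occurred at 39.1% of the ribosomal protein starts against 8.86% of all starts. The palindrome CTCGCGAG occurred at 10.9% against 0.919%, in Rpl12, Rps6, Rps19, Rpl27a, Rpl26 and Rps28. AAGATGGC, a YY1-type sequence, occurred at 9.38% against 2.75%, CTTTCC at 48.4% against 26.6%, and the GC box GGGCGG at 57.8% against 35.7%. The TATA box letters TATAAA occurred at 9.38% against 13.6%. CTTTCC can lie inside a run of C and T, so that pair of counts overlaps. These matches describe letters in the windows only.

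The arrays differed in ways that touch every comparison with uninjured kidneys. Within groups the arrays correlated at Pearson's r of 0.918 to 0.985 across all 45141 probe sets. The 12 fibroblast markers, collagens and Pdgfra among them, averaged 8.41 to 8.81 log2 units at FA day 3, 8.25 to 8.83 at FA day 7, 7.10 to 8.5 at FA day 14 and 9.36 to 9.59 in UUO arrays, against 5.09 to 5.78 in uninjured arrays. Whether fewer fibroblasts or less marker RNA per fibroblast lay behind the lower list mean in uninjured kidneys was not tested. Pdgfra, the receptor used for the sort, lay between 4.25 and 7.20 in the injured arrays, against 5.68 to 6.43 in uninjured arrays. The 11 measured proximal tubule markers averaged 6.51 to 6.68, 5.58 to 8.28, 7.01 to 9.18 and 5.36 to 5.81 in the FA day 3, FA day 7, FA day 14 and UUO arrays, against 8.15 to 9.52 in uninjured arrays. The 19 macrophage and dendritic cell markers averaged 5.69 to 6.03, 7.55 to 8.48, 7.23 to 8.53 and 5.93 to 6.10 in the same order, against 5.22 to 5.40 in uninjured arrays. The intensity below which 99% of probe sets lie was 10.40 to 10.56 in injured arrays, against 10.16 to 10.23 in uninjured arrays.

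Ribosomal protein messenger RNA was higher in every injured array than in every uninjured array. Averaged over the 66 genes bright enough to test, it measured 10.93, 10.80 and 10.85 log2 units in the FA day 3 arrays and 10.50, 10.82 and 10.49 in the FA day 7 arrays. The FA day 14 arrays measured 10.87, 10.10 and 10.59 and the UUO arrays 10.60, 10.40 and 10.50, against 9.52, 9.56 and 9.32 in the uninjured arrays. No injured array reached down to the uninjured range, and FA day 14 was the most spread group. Group means were 10.86 ± 0.0661, 10.60 ± 0.191, 10.52 ± 0.392 and 10.50 ± 0.1 for FA day 3, FA day 7, FA day 14 and UUO, against 9.47 ± 0.13 for uninjured kidneys (SD, n = 3 each). In bulk RNA like this, a smaller share of some cell type and less RNA per cell cannot be told apart.

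The 3 uninjured arrays also had high tubule and low fibroblast marker levels. For FA day 7 replicate 4 and FA day 14 replicates 7 and 8 the proximal tubule means of 8.28, 9.18 and 8.90 lay inside the uninjured range of 8.15 to 9.52 too, and their ribosomal protein means were 10.50, 10.87 and 10.10, against 9.32 to 9.56 in uninjured arrays. The same 3 injured arrays had distal nephron and collecting duct marker means of 7.42, 7.98 and 8.43, against 8.02 to 8.62 in uninjured arrays. Their macrophage and dendritic cell marker means were 7.55, 8.43 and 7.23, against 5.22 to 5.40 in uninjured arrays. The part of cell content in the ribosomal protein means was not tested. Every injured array had a higher fibroblast marker mean than every uninjured array, so fibroblast content and injury cannot be told apart here.

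**Figure D1:**
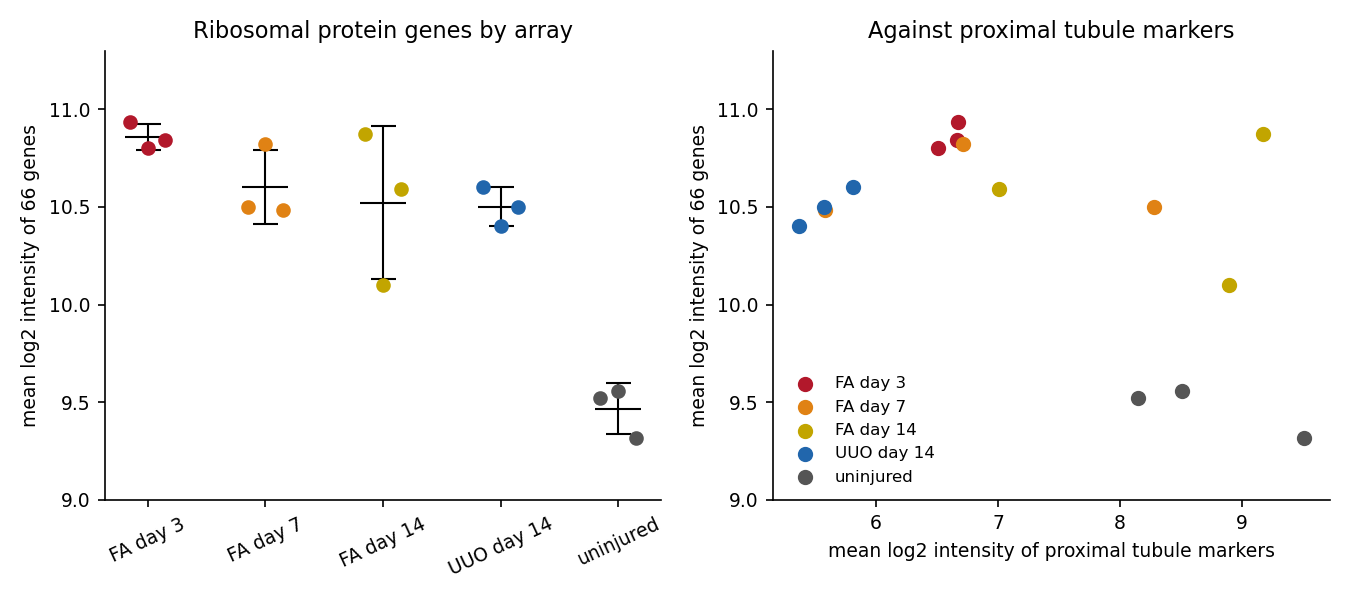
Left, mean log2 intensity of the 66 tested ribosomal protein genes in each array, 3 arrays per group, with bars for the group mean and SD. Right, the same values against the mean of the proximal tubule markers. The 12 injured arrays lie between 10.10 and 10.93 and the uninjured arrays between 9.32 and 9.56. In proximal tubule markers, 3 injured arrays share the range of the uninjured ones.

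Across single genes the difference from uninjured kidneys was as follows. The median gene was 1.31 log2 units higher at FA day 3 (2.48-fold), 0.99 at FA day 7 (1.98-fold), 0.94 at FA day 14 (1.92-fold) and 0.98 in UUO (1.97-fold). Over all 13523 genes tested the medians were 0.02, 0.01, 0.02 and -0.01 in the same order, and over the 784 other genes whose mean level was at or above the 5th percentile of the 66 they were 0.39, 0.27, 0.25 and 0.30. At an adjusted p under 0.05 in limma, 60 of 66 genes were higher at FA day 3 (10.6% of all genes tested were), 54 at FA day 7 (7.5%), 45 at FA day 14 (4.2%) and 51 in UUO (9.07%), and none was lower (6.39%, 4.19%, 1.47% and 7.52% of all genes tested were, in the same order). Because these contrasts chose the family, the counts describe it and nothing is read from them. Arrays did not overlap, with the injured ones higher, for 63 genes at FA day 3 (22.7% of all genes tested), 62 at FA day 7 (18.4%), 57 at FA day 14 (15.5%) and 60 in UUO (20.3%). Of the 66 genes, 43 were in the higher count of every injury group (2.87% of all genes tested), and 57 had every injured array above every uninjured array (6.77% of all genes tested). The 9 with some overlap were Rpl11, Rpl12, Rpl14, Rpl21, Rpl39l, Rpl3l, Rpl9, Rps10 and Rps14.

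**Figure D2:**
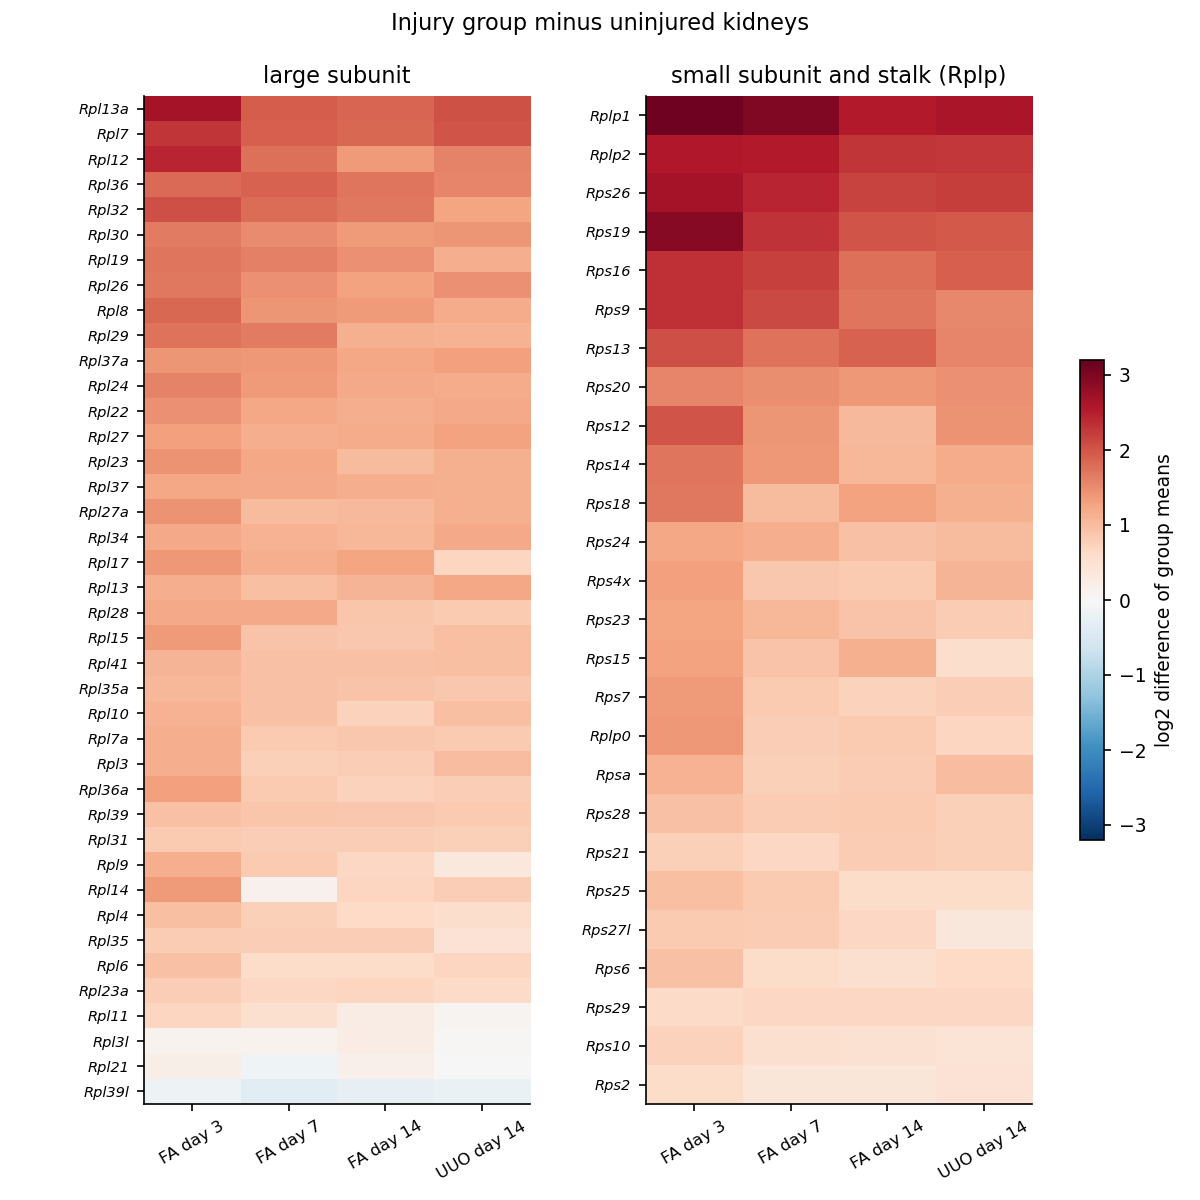
Log2 difference of each injury group from uninjured kidneys for the 66 tested ribosomal protein genes, large subunit on the left and small subunit and stalk on the right, sorted by the mean of the 4 differences. Rplp1 reaches 3.12 at FA day 3, and Rpl3l, Rpl21 and Rpl39l stay near 0 in every column.

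Of the stalk genes, Rplp1 had the largest difference of the family in each injury group, and Rplp2 followed it at FA day 7, FA day 14 and UUO, while Rplp0 lay nearer the family's median. Rplp1 measured 11.18, 11.62 and 11.47 at FA day 3, 11.20, 11.46 and 11.11 at FA day 7, 11.28, 10.28 and 10.93 at FA day 14 and 11.05, 10.95 and 10.75 in UUO, against 8.36, 8.86 and 7.69 in uninjured kidneys. Rplp2 measured 12.16, 12.39 and 12.30 at FA day 3, 12.23, 12.43 and 12.19 at FA day 7, 12.28, 11.64 and 12.15 at FA day 14 and 12.14, 11.97 and 11.88 in UUO, against 9.86, 10.07 and 9.28 in uninjured kidneys. Every injured array of both genes lay above every uninjured array by more than 1 log2 unit. The differences were 3.12, 2.96, 2.53 and 2.62 log2 units for Rplp1 (SE 0.29) and 2.55, 2.55, 2.29 and 2.26 for Rplp2 (SE 0.21), in the order FA day 3, FA day 7, FA day 14 and UUO, equal to 8.71-fold and 5.87-fold at FA day 3. Rplp0, the protein on which the others sit, measured 10.22, 10.47 and 10.49 at FA day 3 and 9.57, 10.14 and 9.69 at FA day 7. It measured 10.54, 9.30 and 9.72 at FA day 14 and 10.01, 9.60 and 9.47 in UUO, against 8.94, 9.13 and 8.95 in uninjured kidneys. Its arrays did not overlap either, but its differences of 1.38, 0.79, 0.84 and 0.68 (SE 0.27) were below those of its partners.

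In the small subunit, all 23 genes tested were above uninjured kidneys in each injury group, with medians of 1.28, 0.92, 0.90 and 0.98 log2 units at FA day 3, FA day 7, FA day 14 and UUO. Rps19, needed to mature the small subunit and mutated in human Diamond-Blackfan anaemia, measured 9.85, 9.80 and 9.86 at FA day 3, 9.35, 9.83 and 8.54 at FA day 7, 9.56, 8.53 and 8.73 at FA day 14 and 9.15, 8.79 and 8.71 in UUO, against 6.95, 6.90 and 6.90 in uninjured kidneys. Rps26, a protein near the exit of the messenger RNA channel, measured 11.11, 10.96 and 11.24 at FA day 3, 10.69, 11.24 and 10.72 at FA day 7, 11.16, 10.16 and 10.54 at FA day 14 and 10.69, 10.61 and 10.70 in UUO, against 8.55, 8.62 and 8.18 in uninjured kidneys. Both genes were separated from the uninjured arrays by more than 1 log2 unit, and the FA day 3 arrays of Rps19 were close to one another. Their differences were 2.92, 2.32, 2.02 and 1.97 (SE 0.30) for Rps19 and 2.65, 2.43, 2.17 and 2.22 (SE 0.23) for Rps26. Rps6 showed 0.93, 0.58, 0.50 and 0.64 (SE 0.13), and Rpsa, also known as the laminin receptor precursor, 1.12, 0.76, 0.80 and 0.98 (SE 0.12). Rps2, a protein of the entry side of the small subunit, had the smallest difference of the subunit at FA day 3, 0.59 (SE 0.13), on the probe set that stood for it. Rps27l, a p53-inducible paralog of Rps27, differed by 0.84, 0.81, 0.66 and 0.37 (SE 0.20). Rps15a, the 1 gene left out as dim, lay at 3.01 to 4.13 on injured arrays, against 3.72 to 3.86 on uninjured arrays.

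In the large subunit, 39, 38, 39 and 39 of 40 genes were above uninjured kidneys, with medians of 1.28, 0.99, 0.98 and 0.97 in the order FA day 3, FA day 7, FA day 14 and UUO. Rpl13a, which in human myeloid cells can leave the ribosome to silence inflammatory messenger RNAs, measured 10.50, 9.77 and 9.84 at FA day 3, 9.00, 9.80 and 9.09 at FA day 7, 10.14, 8.42 and 9.12 at FA day 14 and 9.31, 9.29 and 9.64 in UUO, against 7.61, 7.73 and 6.75 in uninjured kidneys. FA day 14 spanned the widest range, and its lowest array still lay above the uninjured arrays. The differences were 2.67, 1.93, 1.86 and 2.05 (SE 0.40). Rpl22, whose protein represses its own paralog in mice, measured 11.20, 11.26 and 11.44 at FA day 3, 11.24, 11.09 and 10.83 at FA day 7, 11.07, 10.71 and 11.19 at FA day 14 and 11.22, 10.88 and 10.99 in UUO, against 9.88, 9.96 and 9.65 in uninjured kidneys, with differences of 1.47, 1.23, 1.16 and 1.20 (SE 0.17).

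A few large subunit genes overlapped uninjured kidneys in some or all injury groups. Rpl21, a gene with many processed pseudogenes in mammals, measured 11.36, 11.06 and 11.00 at FA day 3, 10.33, 11.19 and 10.94 at FA day 7, 11.23, 10.89 and 11.21 at FA day 14 and 11.10, 10.87 and 10.93 in UUO, against 11.10, 10.95 and 10.81 in uninjured kidneys. All 4 injury groups overlapped the uninjured arrays, and a second probe set of Rpl21 above 10 log2 units differed by 0.27, -0.05, 0.24 and 0.05. Rpl11, which with Rpl5 can bind the p53 regulator Mdm2, measured 11.18, 11.18 and 11.39 at FA day 3, 10.77, 11.29 and 11.14 at FA day 7, 11.35, 10.04 and 10.96 at FA day 14 and 10.97, 10.46 and 10.52 in UUO, against 10.55, 10.68 and 10.43 in uninjured kidneys. Its FA day 3 and FA day 7 arrays lay above the uninjured arrays, and its FA day 14 and UUO arrays overlapped them. The tissue-restricted paralogs were dim throughout. Rpl39l, best known from the testis, measured 5.40, 5.56 and 5.52 at FA day 3, 5.24, 5.38 and 5.38 at FA day 7, 5.44, 5.41 and 5.39 at FA day 14 and 5.44, 5.42 and 5.51 in UUO, against 5.43, 5.88 and 5.70 in uninjured kidneys. The FA day 7 arrays of Rpl39l all lay below the uninjured arrays, by 0.34 on average, and the other groups overlapped them. Rpl3l, best known from striated muscle, lay at 5.49 to 5.92 on injured arrays, against 5.52 to 5.66 on uninjured arrays. Rpl3l, Rpl39l and Rpl21 had the smallest SD of the 5 group means, 0.0918, 0.125 and 0.128, and Rplp1, Rps19 and Rplp2 had the largest, 1.28, 1.10 and 1.09. Rpl14, on a dim probe set, measured 6.80, 5.81 and 5.06 at FA day 3 and 4.62, 4.77 and 4.60 at FA day 7, against 4.83, 4.63 and 4.11 in uninjured kidneys. Its FA day 14 arrays (5.43, 4.65 and 5.53) and UUO arrays (6.35, 4.23 and 5.38) overlapped the uninjured arrays, as did FA day 7.

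**Figure D3:**
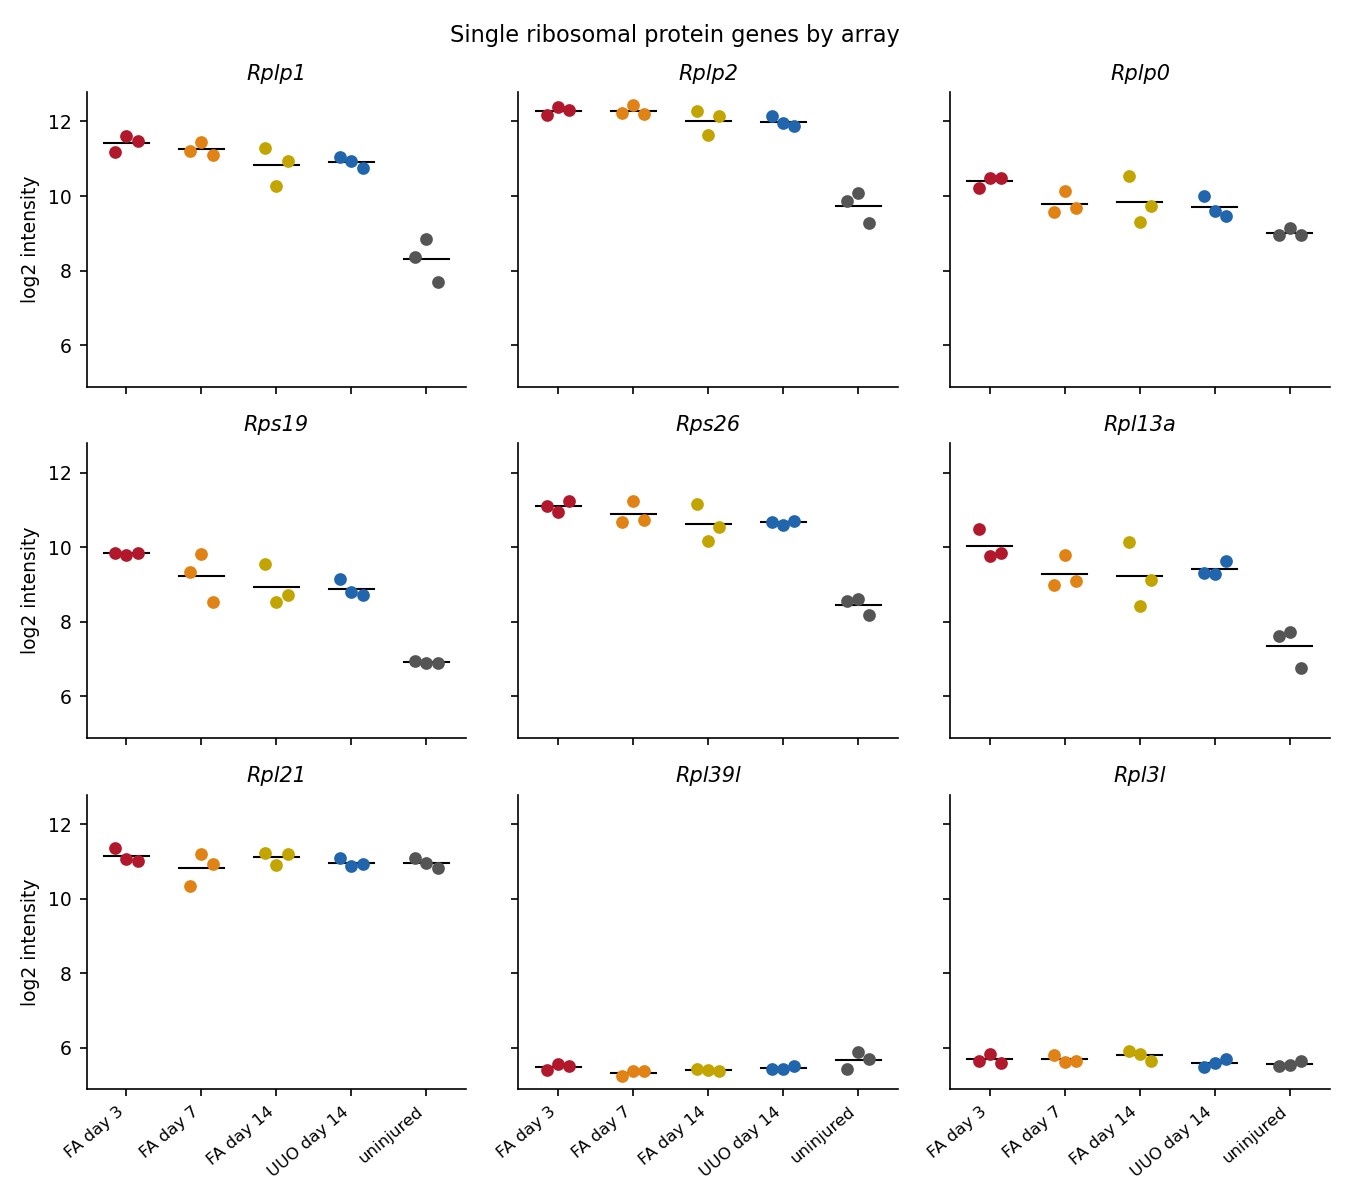
Log2 intensity of 9 ribosomal protein genes in each of the 15 arrays, with a line at each group mean. Rplp1, Rplp2, Rps19, Rps26, Rpl13a and Rplp0 lie higher in all injured arrays than in uninjured arrays, and Rpl21, Rpl39l and Rpl3l overlap between injured and uninjured arrays.

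The size of the difference depended on the probe set that read a gene. Of the 97 ribosomal protein probe sets with a mean above 8 log2 units, 97 were higher at FA day 3, 95 at FA day 7, 97 at FA day 14 and 97 in UUO than in uninjured kidneys. Of the 31 at or below 8, 16, 15, 13 and 17 were, with medians of 0.02, -0.01, -0.05 and 0.03. At FA day 3, Rps2 differed by 0.59 on the probe set that stood for it (mean 11.07) and by 2.46 on another (mean 9.51), Rps10 by 0.75 (mean 10.43) and 2.01 (mean 9.40), and Rps29 by 0.62 (mean 12.62) and 1.68 (mean 11.77). In these pairs, picked for their spread, the probe set with the higher intensity showed the smaller difference. Of the 24 genes with more than 1 probe set above 8, the brightest differed by less than the dimmest in 19 and by more in 5, Rpl7 among them. Between genes grouped by intensity, the median difference at FA day 3 was 1.70 for the 22 dimmest of the tested genes, 1.29 for the middle 22 and 1.08 for the brightest 22. Fold changes of the brightest genes may be read as the array's value only, since how far its response flattens there was not tested. Of the 32 genes with more than 1 probe set past the dim filter, 7 had probe sets that differed in sign at FA day 3, namely Rpl11, Rpl15, Rpl21, Rpl37, Rpl9, Rps13 and Rps24. By the array maker's naming, probe sets ending in x_at or s_at can cross-react with related transcripts. Above 8 log2 units, the 38 probe sets ending in x_at and the 6 in s_at had medians of 1.12 and 1.14 at FA day 3, beside 1.49 for the 40 in a_at and 1.47 for the 13 ending in at alone. Over all levels the medians were 1.05, 1.11, 1.36 and 0.34 in the same order, and 13 of the 34 ending in at alone were below 0.

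**Figure D4:**
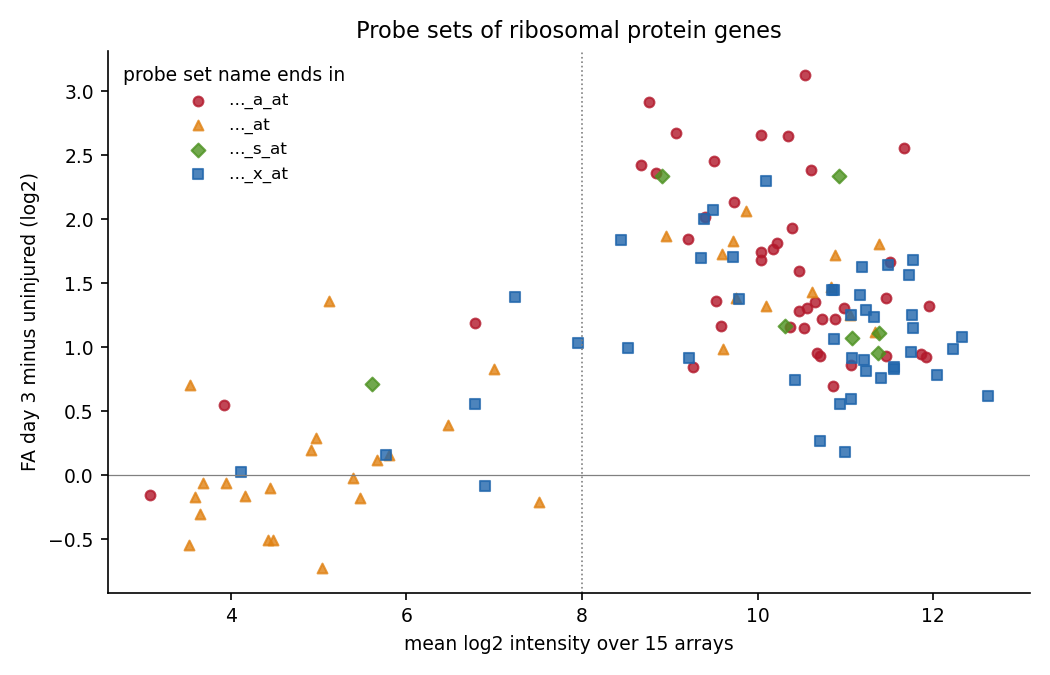
FA day 3 minus uninjured log2 difference of all 128 ribosomal protein probe sets against their mean log2 intensity over 15 arrays, marked by the ending of the probe set name. All 97 probe sets to the right of the dotted line at 8 lie above 0, as do 16 of the 31 at or to the left of it.

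Within injured kidneys most of these genes had their highest mean at FA day 3, and no single gene passed the test. FA day 3 had the highest of the 5 group means, uninjured kidneys included, for 60 of 66 genes. The exceptions were Rpl13, Rpl36, Rpl39l, Rpl3l, Rps21 and Rps29. Among all 13523 genes tested, 3898 had the highest of the 4 injury group means at FA day 3. That count leaves out uninjured kidneys, so it is not on the same measure as the 60 of 66. The count over 5 group means was not made for all genes. The median gene was 0.21 log2 units lower at FA day 7 than at FA day 3, 0.32 lower at FA day 14 than at FA day 3 and 0.31 lower in UUO than at FA day 3, with 64, 63 and 64 of 66 genes below 0 (51.4%, 50.9% and 54% of all genes tested were). All genes tested had medians of -0.01, -0.01 and -0.03 in these comparisons, and the 784 other genes above that percentile of level -0.10, -0.12 and -0.12. Without FA day 14 replicate 8, the median of FA day 14 minus FA day 3 was -0.09, with 49 of 66 genes below 0. These 3 comparisons share the FA day 3 arrays. In limma, none of the 66 genes was called at an adjusted p under 0.05 in any of the 3. At an unadjusted p under 0.05 there were 8, 14 and 12 genes, where 11.1%, 16.4% and 12.9% of all genes tested were. Of all genes tested, 0.695% were called in FA day 7 minus FA day 3, 3.05% in FA day 14 minus FA day 3 and 1.13% in UUO minus FA day 3. Arrays did not overlap, with FA day 3 higher, for 17 genes against FA day 7 (7.85% of all genes tested), 12 against FA day 14 (10.3%) and 42 against UUO (12% of all genes tested). These counts were not tested as a set.

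**Figure D5:**
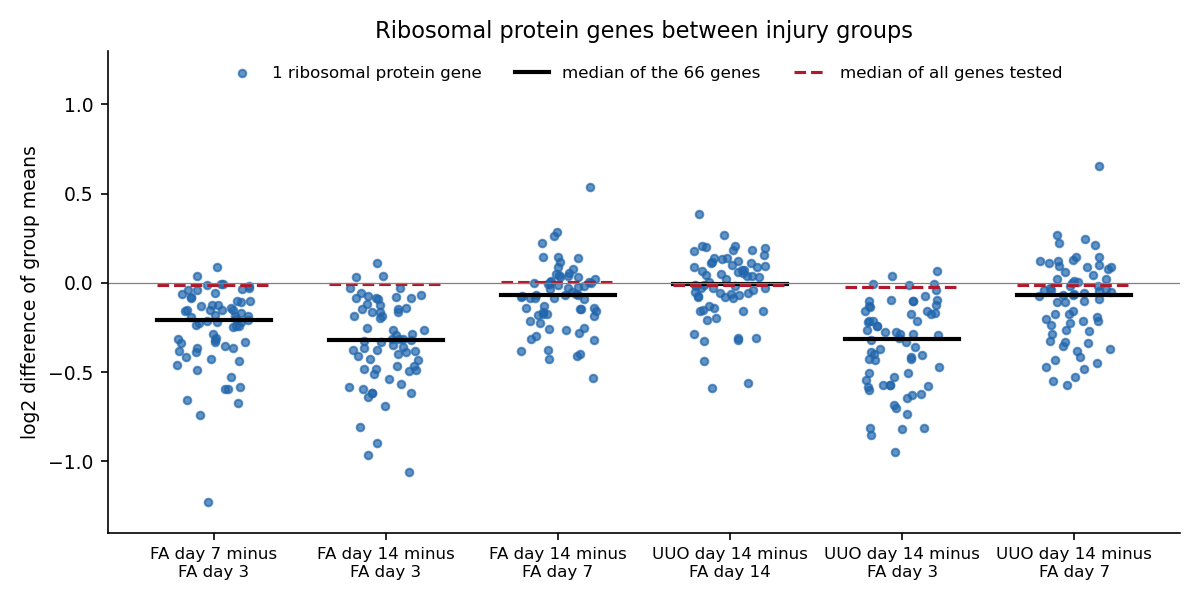
Log2 difference of each of the 66 tested ribosomal protein genes in the 6 comparisons between injury groups, with the median of the 66 genes as a solid line and the median of all genes tested as a dashed line. The solid line lies at -0.21, -0.32 and -0.31 in the comparisons with FA day 3 and between -0.07 and 0 in the others.

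The 6 genes with an unadjusted p under 0.05 in limma's F test among the 4 injury groups, which called none of the 66, were all of the small subunit: Rps4x, Rps15, Rps6, Rps19, Rpsa and Rps12. The share of all genes tested at that unadjusted p was not counted, so nothing is read from these 6 or their subunit. Rps4x, an X-linked gene, measured 10.51, 10.77 and 10.53 at FA day 7, against 11.04, 11.11 and 11.02 at FA day 3, a difference of -0.46 (SE 0.15, limma adjusted p = 0.237). Rpsa measured 11.41, 11.44 and 11.25 at FA day 7, against 11.72, 11.68 and 11.79 at FA day 3, a difference of -0.36 (SE 0.12, limma adjusted p = 0.242). Neither gene's arrays overlapped between the days, and neither passed the test. Rps6 measured 11.53, 11.28 and 11.49 at FA day 14, against 11.81, 11.93 and 11.84 at FA day 3, a difference of -0.43 (SE 0.13, limma adjusted p = 0.0988). Rps12 measured 9.87, 8.45 and 9.44 at FA day 14, against 10.35, 10.44 and 9.87 at FA day 3, a difference of -0.96 (SE 0.29, limma adjusted p = 0.101). Rps12 was lowest in FA day 14 replicate 8. Without FA day 14 replicate 7 the difference of Rps12 was -1.27 with a limma adjusted p of 0.0324, and without replicate 8 it was -0.56. In UUO, Rps15, a protein close to the decoding centre, measured 10.58, 9.97 and 10.18, against 10.98, 10.81 and 11.13 at FA day 3, a difference of -0.73 (SE 0.21, limma adjusted p = 0.144). Rps19 differed by -0.95 between UUO and FA day 3 (SE 0.30, limma adjusted p = 0.186), with no overlap of arrays.

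The later injury groups lay closer to each other. The median difference was -0.07 for FA day 14 minus FA day 7, -0.07 for UUO minus FA day 7 and -0.005 for UUO minus FA day 14, the comparison of both injuries at the same day, with 46, 44 and 33 of 66 genes below 0 (49%, 52.2% and 51.6% of all genes tested were). In limma none was called in any of these, at 0.0518%, 0.274% and 3.03% of all genes tested, and 0, 0 and 1 had an unadjusted p under 0.05, where 8.83%, 9.12% and 17.3% of all genes tested did. Rps15 was the 1 gene, at -0.59 in UUO minus FA day 14 (SE 0.21, limma adjusted p = 0.169). Rps4x differed by 0.27 in the same comparison (SE 0.15, limma adjusted p = 0.416), Rps27l by -0.43 (SE 0.20, adjusted p = 0.561) and Rpsa by 0.22 (SE 0.12, adjusted p = 0.636) in UUO minus FA day 7, and Rps16 by -0.41 (SE 0.23, adjusted p = 0.645) and Rpl29 by -0.54 (SE 0.32, adjusted p = 0.67) in FA day 14 minus FA day 7. Leaving out FA day 14 replicate 8, whose ribosomal protein mean of 10.10 was the lowest of the injured arrays, turned the median of FA day 14 minus FA day 7 to 0.10 and moved that of UUO minus FA day 14 to -0.21, while without replicate 7 the median of UUO minus FA day 14 was 0.15. The smallest limma adjusted p of the F test was 0.199, for Rps4x, and that test called 3.26% of all genes tested. A p above the threshold does not show that the groups are equal.

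The cell cycle list and the RNA quality controls were set beside the day 3 level. The 18 measured cell cycle genes averaged 6.04 to 6.45 at FA day 3, 5.50 to 5.79 at FA day 7, 5.45 to 5.70 at FA day 14 and 5.60 to 5.72 in UUO, against 5.24 to 5.36 in uninjured kidneys. In limma, 5 of the 16 tested were called higher at FA day 3 than in uninjured kidneys (10.6% of all genes tested were), among them Birc5 at 1.97 (adjusted p = 0.000349). Relative to FA day 3, 3 were called lower at FA day 7, 4 at FA day 14 and 2 in UUO, and none of the 16 was called higher. Among all 13523 genes tested, 57, 247 and 82 were called lower in these comparisons. The probe sets for Gapdh, which differ more between the 3′ and 5′ ends when RNA is degraded, differed by 2.42 ± 0.609 at FA day 3, 2.61 ± 0.345 at FA day 7, 3.04 ± 0.215 at FA day 14 and 2.93 ± 0.474 in UUO, against 3.13 ± 0.435 in uninjured kidneys (SD, n = 3 each), and FA day 3 (1.77 to 2.98) overlapped uninjured kidneys (2.69 to 3.56). Those for Actb differed by -0.268, -0.4, -0.285 and -0.252, against -0.245 in uninjured kidneys, and FA day 3 was not apart from the rest. The part of either in the ribosomal protein values was not tested.

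Genes with ribosome-related names that the naming rule left out were in part higher as well. Of 8 tested, 3 rose at FA day 3, 3 at FA day 7, 3 at FA day 14 and 2 in UUO relative to uninjured kidneys, and none fell, with medians of 0.36, 0.77, 0.52 and 0.63. Among all genes tested, 10.6%, 7.5%, 4.2% and 9.07% were called higher in the same order, and 6.39%, 4.19%, 1.47% and 7.52% lower. Rpl22l1, the paralog of Rpl22, measured 10.69, 10.28 and 10.42 at FA day 3, 10.15, 10.58 and 9.50 at FA day 7, 9.97, 8.79 and 9.92 at FA day 14 and 9.79, 10.26 and 10.13 in UUO, against 7.07, 6.85 and 7.28 in uninjured kidneys. Its arrays did not overlap, and it rose by 3.40, 3.01, 2.49 and 3.00 log2 units (SE 0.32, limma adjusted p at most 0.000821). Rps3a1, a small subunit protein, rose by 1.72, 1.51, 1.12 and 1.37 (SE 0.21, adjusted p at most 0.00784). Fau, which encodes a small subunit protein fused to a ubiquitin-like one, rose by 1.22 at FA day 3, 1.10 at FA day 7 and 1.18 at FA day 14 (adjusted p at most 0.0228), and was at 0.80 in UUO without passing the test. Rpl7l1, Rpl36al, Rsl24d1, Rsl1d1 and Rps19bp1 were called in none of the 4.

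Genes that act on the finished ribosome, and those that build it, were followed through lists. Of 12 elongation genes tested, 5, 4, 3 and 6 rose at FA day 3, FA day 7, FA day 14 and UUO relative to uninjured kidneys and none fell, with medians of 0.69, 0.42, 0.48 and 0.55. Of all genes tested, 10.6%, 7.5%, 4.2% and 9.07% were called higher in that order, and 6.39%, 4.19%, 1.47% and 7.52% lower. Pabpc1, the poly(A)-binding protein whose messenger RNA also carries the terminal C and T run, rose by 1.84, 1.39, 1.19 and 1.28 (SE 0.20, limma adjusted p at most 0.00513). Eef2, the translocation factor, rose by 1.17, 0.93, 0.78 and 0.77 (SE 0.20), and Eef1a1, which brings in aminoacyl-tRNA, by 0.58, 0.46, 0.39 and 0.64 (SE 0.10). Of 26 initiation genes, 11, 5, 6 and 4 rose and none fell, with medians of 0.54, 0.35, 0.26 and 0.28, led by Eif4a1, the RNA helicase of the cap-binding complex, at 2.20, 2.06, 1.55 and 1.72 (SE 0.30, limma adjusted p at most 0.0105). Of 42 ribosome biogenesis genes, 0, 1, 1 and 0 rose and 1, 3, 1 and 3 fell, with medians between -0.04 and 0. Nop10, a part of the pseudouridylation complex, rose by 1.27 at FA day 14, Fbl, the methyltransferase of the other modification complex, by 1.09 at FA day 7, and Dkc1, the pseudouridine synthase, fell by 0.87, 0.74, 0.81 and 0.76. None of 12 genes of RNA polymerase I and of 5S transcription was called in limma, with 0, 4, 1 and 0 at an unadjusted p under 0.05. At that unadjusted p there were 4201, 3671, 2753 and 4031 of all 13523 genes tested. The nearest was Taf1d, at -1.45 (SE 0.48, limma adjusted p = 0.0719) at FA day 7. The difference between these lists and the ribosomal protein genes was not tested.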

How the data were processed

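RNA of sorted PDGFRa-positive cells was measured on 15 Affymetrix arrays. The deposited values are log2 intensities per probe set. The submitters' processing notes name RMA, affy and limma, with no versions given in the sources used here. The array values carry no read depth, and the number of arrays limits the precision.

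Probe sets that name 1 gene were used (28898 of 45141), and the one with the highest mean over the 15 arrays stood for its gene. A gene was tested if that probe set lay above the array's 40th percentile in at least 3 arrays, which left 13523 of 17097 genes. The means of the 5 groups were fitted by limma's lmFit and eBayes functions (version 3.58.1, R 4.3.3, 10 residual degrees of freedom), with Benjamini-Hochberg adjustment over all genes tested and a call at an adjusted p under 0.05. A reported SE is the moderated one. Tables and figures were made with Python 3.11.15, pandas 2.3.3 and matplotlib 3.10.9. The fit was tested on simulated data. The member genes and the gene lists were chosen with earlier results of these data known.

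Between injury groups, the genes named are those with the smallest p for each comparison; against uninjured kidneys, those with the highest and lowest differences, the most and least varying, and members with a known role. The 14 symbols of the family with no probe set of their own, Rpl10l, Rpl5, Rps3, Rps27 and Rps27a among them, were not analysed here. Alternatives changed the normalization, the centring, the dim filter, the probe set, the arrays in the fit, array weights, the variance model, the threshold and marker covariates, or left out each array in turn.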

Additional observations from a re-analysis of the deposited data

How the results depend on the processing

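No paired analysis was possible because the replicate numbers run on across groups and no 2 groups share one. Of the 870 values recomputed under an alternative, 842 stayed on their side of the threshold, within 1.5 times the count or within the spread between replicates. The sign turned for 15 of 250 medians, all in UUO minus FA day 14, FA day 14 minus FA day 7 and UUO minus FA day 7. With the macrophage marker mean as a covariate, the median of the ribosomal protein genes was -1.05 for FA day 7 minus FA day 3, -0.964 for FA day 14 minus FA day 3, 0.6 for UUO minus FA day 14 and 0.6 for UUO minus FA day 7, and 3 genes were called in FA day 14 minus FA day 3 (Rpl11, Rpl12 and Rps12), 1 in UUO minus FA day 14 (Rpl12) and 1 by the F test (Rpl12). Over all genes that fit called 207 in FA day 14 minus FA day 3 and 281 in UUO minus FA day 14. Rps15 turned to 0.087 in UUO minus FA day 14. Against uninjured kidneys the macrophage covariate gave medians of 1.1, 0.131, 0.116 and 0.76 at FA day 3, FA day 7, FA day 14 and UUO. In that order 55, 0, 0 and 33 genes were higher. All genes had 1482, 6, 2 and 1210 calls in either direction, of which 67.4%, 100%, 100% and 63.6% were higher. Macrophage means were at least 7.2 in every FA day 7 and FA day 14 array and at most 6.1 in all other arrays, so this fit extrapolates between the groups. With proximal tubule markers as the covariate instead, 49, 31, 44 and 13 genes were higher. All genes had 1021, 721, 905 and 324 calls in either direction, of which 70.5%, 72.1%, 73.3% and 69.8% were higher. Fitted on the arrays compared alone, 20 genes were higher at FA day 14, where all genes had 397 calls, 84.6% of them higher. Quantile normalization gave medians of 1, 0.749 and 0.798 at FA day 3, FA day 7 and UUO, and the mean of all probe sets gave 0.86 in UUO. Without probe sets ending in x_at or s_at, UUO minus FA day 3 had a median of -0.4 and 1 call. All genes had 148 calls there. The call was Rps24, which was higher by 1.57 on a dim probe set, and the F test had 1 call, also Rps24. F test calls over all genes were not counted under the alternatives. Among all genes called against uninjured kidneys, 62.5%, 64.2%, 74.1% and 54.7% were higher at FA day 3, FA day 7, FA day 14 and UUO, with 51%, 51.6%, 59.4% and 48.3% after quantile normalization and 71.8%, 71.9%, 81.1% and 62% after median centring. Leaving out 1 array at a time gave 0 to 1 calls in FA day 14 minus FA day 3 (Rps12) and 0 in the other 5 comparisons between injuries. Against uninjured kidneys it gave 56 to 62, 40 to 58, 33 to 59 and 40 to 56 genes called. All were higher but Rpl39l, which was called lower (-0.455) at FA day 7 without uninjured replicate 13. In the main fit all genes had 2304, 1580, 767 and 2244 calls in either direction. Calls over all genes are not given for each fit with 1 array left out, so nothing is read from these ranges. The median of FA day 7 minus FA day 3 ran from -0.304 to -0.139, that of FA day 14 minus FA day 3 from -0.472 without FA day 14 replicate 7 to -0.0941 without replicate 8, and that of UUO minus FA day 3 from -0.351 to -0.262. The median of UUO minus FA day 14 was 0.147 without FA day 14 replicate 7, and that of UUO minus FA day 7 was 0.0113 without FA day 7 replicate 5. The cause of these changes was not tested.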

Other observations

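The ribosome of mitochondria has proteins encoded by separate nuclear genes. Genes were taken for it by symbol alone, Mrpl or Mrps with a number. Of these 73 genes tested in limma, 5, 2, 3 and 3 rose and 3, 2, 1 and 6 fell at FA day 3, FA day 7, FA day 14 and UUO relative to uninjured kidneys, with medians of 0.13, 0.04, 0.24 and -0.15. Over all genes tested, 10.6%, 7.5%, 4.2% and 9.07% were called higher and 6.39%, 4.19%, 1.47% and 7.52% lower. In UUO relative to FA day 14, 64 of the 73 genes were below 0 (51.6% of all genes tested were), with a list median of -0.38. Mrpl42, Mrpl46 and Mrps36 fell in that comparison, where 3.03% of all genes tested were called in either direction. In UUO relative to FA day 3, 56 of the 73 were below 0 (54% of all genes tested were), with a median of -0.40 and no gene called in limma, 18 having an unadjusted p under 0.05 (12.9% of all genes tested did). Mrpl42 also fell in UUO relative to FA day 7, by 2.16 log2 units.

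Of 15 regulators of ribosome production tested in limma, 2, 2, 0 and 0 rose and 0, 1, 0 and 2 fell relative to uninjured kidneys in the same order. The list medians were 0.09, 0.19, -0.05 and 0.13. Among all genes tested, 10.6%, 7.5%, 4.2% and 9.07% were called higher and 6.39%, 4.19%, 1.47% and 7.52% lower. No link of these regulators to the ribosomal protein values was tested. Myc, the transcription factor that drives many ribosome genes, rose by 1.75 at FA day 3 (adjusted p = 0.00104) and 1.35 at FA day 7 (adjusted p = 0.00792) and fell by 1.52 in UUO relative to FA day 3 (adjusted p = 0.0168). Mtor, the kinase whose signalling acts through the terminal C and T run, fell by 0.84 at FA day 7 (adjusted p = 0.0178) and 1.08 in UUO (adjusted p = 0.00297). Eif4ebp1, the translation repressor that mTOR phosphorylates, was counted in the initiation list and is not among these 15. It rose by 1.57 at FA day 3 (limma adjusted p = 0.00122) and fell by 1.15 at FA day 14 relative to FA day 3 (limma adjusted p = 0.0312).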
